A study of Mus musculus with 6 samples.

Results

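The genes examined here make, anchor to or cut the extracellular matrix, in lymphatic endothelial cells from the meninges of mice. They were picked by a rule on names, with earlier results of these data known. The rule takes the collagen, laminin and integrin chains, and the ADAM, ADAMTS and ADAMTS-like proteins. It also takes the matrix metalloproteinases, TIMPs, fibulins, fibrillins, latent TGF-beta binding proteins and nidogens. Fibronectin, perlecan and Sparc are added, and Adam10, Adam17 and Adamts3 are left out. Of the 4233 genes in the deposited table, 53 met this rule, out of 183 symbols of the mouse annotation that would. One of the 53, Col4a3bp, matches by its name only and encodes a ceramide transfer protein. The remaining symbols are not analysed here.

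The cells were sorted as CD31-positive, podoplanin-positive singlets that excluded DAPI and CD45. There were 3 libraries of non-transgenic C57BL/6J littermates (WT) and 3 of hemizygous 5xFAD mice, which carry transgenes under the neuronal Thy1 promoter and deposit amyloid in the brain. All mice were males aged 6 months, and the cells of 10 mice were pooled for each library. Pools are the replicates, so p-values do not measure the spread between single mice. In the main test, described below, the spread between pools is taken from genes of similar level and not from each gene's own values. The comparison asks how these cells differ between the genotypes. Values are normalised counts, that is reads divided by 1 factor per library. All 14 lymphatic endothelial markers looked for were in the table with reads in every library, at a summed 319184 to 364619 in WT and 271779 to 441665 in 5xFAD (exact permutation p = 0.4, two-sided, where 3 against 3 cannot go under 0.1). The listed genes held 10263689 to 11934686 reads per WT library and 7960827 to 13255050 per 5xFAD library. Genes outside the table are not in these totals.

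Lymphatic endothelial cells rest on a thin basement membrane of laminins, collagen IV, nidogen and perlecan, and are tied by integrins to this layer and to the fibrils around it. Integrins are pairs of 1 alpha and 1 beta chain, and the pair sets which matrix protein is bound. Metalloproteinases of the MMP, ADAM and ADAMTS families cut matrix and cell surface proteins, and TIMPs inhibit them. Lymphatic capillaries are also held by anchoring filaments rich in fibrillin, and integrin alpha 9 with fibronectin is known for its role in the formation of lymphatic valves.

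Of the 53 genes, 3 were lower in 5xFAD than in WT and 0 were higher. The 3 were Timp1, a secreted inhibitor of metalloproteinases, Itgb2, the beta chain of the leukocyte integrins, and Col6a6, a chain of the microfibrillar collagen VI. No laminin, nidogen, glycoprotein or integrin alpha chain passed the test. The test was limma on log2(value + 1), with a Benjamini-Hochberg adjusted p under 0.05 over all 4152 genes with a mean value of at least 10. Of the 53 genes, 52 were tested, all but Adamts16.

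These counts were close to the background. Lower genes were 5.77% of the members and 4.48% of all genes tested, and higher genes were 1.88% of all genes tested. At an unadjusted p under 0.05, 6 members were lower (11.5%, against 9.61% of all genes) and 2 higher (3.85%, against 6.7%). DESeq2 on the recovered reads called 5 lower and 1 higher (6.41% and 3.96% of all genes it tested), and edgeR called 3 and 0 (4.12% and 1.93%). The median log2 fold change was -0.07 over the members and -0.02 over all genes tested, and their median absolute values were 0.55 and 0.79. In this fit the standard errors and intervals come from genes of similar level, and a gene's own spread has no weight in them.

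**Figure D1:**
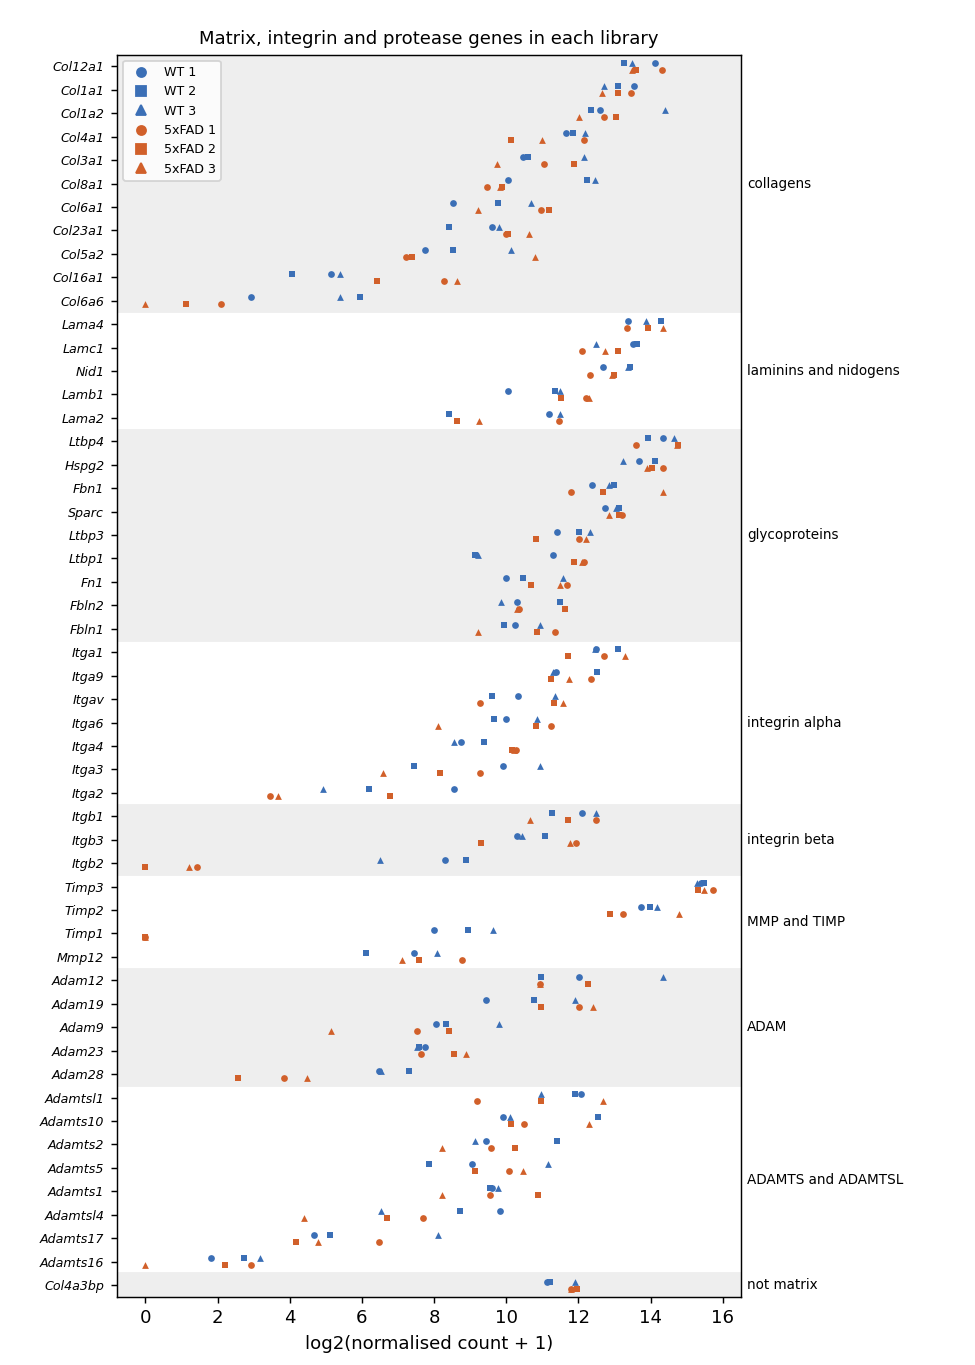
Level of each of the 53 genes in each library, as log2(normalised count + 1), grouped by role, with WT libraries in blue and 5xFAD libraries in orange (circle, square and triangle for libraries 1, 2 and 3). Timp3 is highest and tightest, while Timp1 is at 0 in all 5xFAD libraries and Itgb2 and Col6a6 are near 0 there.

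Among the inhibitors, Timp1 stood at 254, 487 and 790 in the 3 WT libraries and at 0 in all 3 5xFAD libraries. The groups did not overlap. Its 1726 WT reads against none make it at least 473-fold lower in 5xFAD, with a floor of 3 reads over the group. By limma the difference was -8.85 on the log2 scale (SE 1.06; adjusted p = 4.72e-14). Without the library 5xFAD 1, which held no Timp1 read, the bound is 268 because fewer libraries stand behind the floor. Genes without any read were more frequent in 5xFAD: 54 listed genes had no read in any 5xFAD library and 11 had none in any WT library. Within each genotype, every listed gene had an SD of log2(reads + 1) under 2. A gene without reads in 1 library of a genotype and with many in another is thus not listed, while a gene without reads in all 3 can be. Of the 54, 50 were tested and all 50 were called. A gene of this kind enters the test only with WT values high enough for the filter on the mean. The filter thus makes such a call likely, and the count of 50 adds nothing to any single call. Itgb2 and Col6a6, with 5xFAD means of 0.995 and 1.51 and WT means of 291 and 35.9, also met the filter only through WT. Single libraries lacked reads for 25 to 42 listed genes in WT and for 86 to 147 in 5xFAD. The part of this in the Timp1, Itgb2 and Col6a6 results was not tested. In bulk libraries such as these, fewer cells of a type and less RNA per cell cannot be told apart.

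Timp2, which also takes part in the activation of proMMP2, and Timp3, which binds to the matrix, did not pass the test. Timp3 was at 43183, 45676 and 39969 in WT and at 53973, 40529 and 46004 in 5xFAD, and its highest library was 1.35 times its lowest, the narrowest range of any member with reads in every library. Timp2 was at 13587, 16218 and 18533 in WT and at 9699, 7544 and 28164 in 5xFAD. Both genes overlapped between genotypes, with log2 fold changes of 0.12 (95% interval -0.46 to 0.70) for Timp3 and -0.33 (-1.25 to 0.59) for Timp2. Per kb of exon, WT levels were 9090 ± 606 for Timp3, 4340 ± 667 for Timp2 and 575 ± 303 for Timp1 (SD, n = 3). The 3 genes did not overlap in WT on this scale. Added together, the 3 inhibitors came to 59570 ± 2690 in WT against 61970 ± 13100 (SD, n = 3) in the transgenic libraries (exact permutation p = 0.7). Timp1 gave a mean of 510 to this sum in WT, less than the SD of the sum, so the sum cannot show the change in Timp1. Timp1 and Timp3 lie inside the synapsin genes Syn1 and Syn3 on the opposite strand, without overlap of exons.

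The only matrix metalloproteinase in the table was Mmp12, macrophage elastase. Its values were 173, 67.9 and 272 in WT and 433, 191 and 138 in 5xFAD, which overlap (log2 fold change 0.61, 95% interval -1.46 to 2.68).

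The 250 bases before the start site are shown for Timp1 beside Timp2 and Timp3, the relatives that did not pass the test, and for Col6a6, the called collagen. They are from RefSeq on GRCm38.p6, read 5′ to 3′ on the strand of the gene. The Timp1 window ends where the gene begins in GENCODE, the annotation used for lengths. For the others the 2 sources differ in the start. The Timp2 window lies inside the GENCODE gene, which begins at 118355740. The Timp3 and Col6a6 windows reach into theirs, which begin at 86300372 and 105828160. Of the called members, Itgb2 had no entry. Capitals mark matches on either strand to the AP-1 motif TGANTCA, the GC box GGGCGG, an ETS motif AGGAAG and the TATA box TATAAA.
Timp1 (chrX:20869916-20870165, plus strand): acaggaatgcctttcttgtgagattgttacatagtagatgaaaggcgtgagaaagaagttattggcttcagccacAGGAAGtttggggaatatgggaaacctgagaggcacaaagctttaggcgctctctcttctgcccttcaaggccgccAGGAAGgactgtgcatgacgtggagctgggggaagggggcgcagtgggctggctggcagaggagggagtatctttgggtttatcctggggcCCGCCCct
Timp2 (chr11:118355412-118355661, minus strand): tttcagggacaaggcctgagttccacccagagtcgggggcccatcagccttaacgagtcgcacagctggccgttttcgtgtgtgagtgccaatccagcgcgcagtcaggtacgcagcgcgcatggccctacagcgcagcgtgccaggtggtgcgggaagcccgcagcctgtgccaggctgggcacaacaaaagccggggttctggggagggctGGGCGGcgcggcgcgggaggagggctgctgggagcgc
Timp3 (chr10:86300162-86300411, plus strand): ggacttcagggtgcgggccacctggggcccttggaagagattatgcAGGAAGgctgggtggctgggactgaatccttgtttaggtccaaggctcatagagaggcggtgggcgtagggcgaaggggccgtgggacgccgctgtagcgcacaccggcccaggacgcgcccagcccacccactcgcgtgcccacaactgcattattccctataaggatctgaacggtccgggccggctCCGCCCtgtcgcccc
Col6a6 (chr9:105828086-105828335, minus strand): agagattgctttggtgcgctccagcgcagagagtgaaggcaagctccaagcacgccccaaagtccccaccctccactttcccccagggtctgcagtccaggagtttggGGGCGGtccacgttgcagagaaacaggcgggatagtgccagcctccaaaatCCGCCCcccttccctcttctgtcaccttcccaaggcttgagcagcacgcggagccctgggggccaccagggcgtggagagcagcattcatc
All 4 windows held a GC box, 2 in Col6a6 and 1 in each of the others, as did 32.7% of 32817 RefSeq promoter windows of the same length. Timp1 held the ETS motif at 2 places and Timp3 at 1, and Timp2 and Col6a6 held none (29.5% of windows hold it). No window held the AP-1 motif (6.75%) or the TATA box (12.4%) in these letters. The matches describe the sequence and do not show binding.

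**Figure D2:**
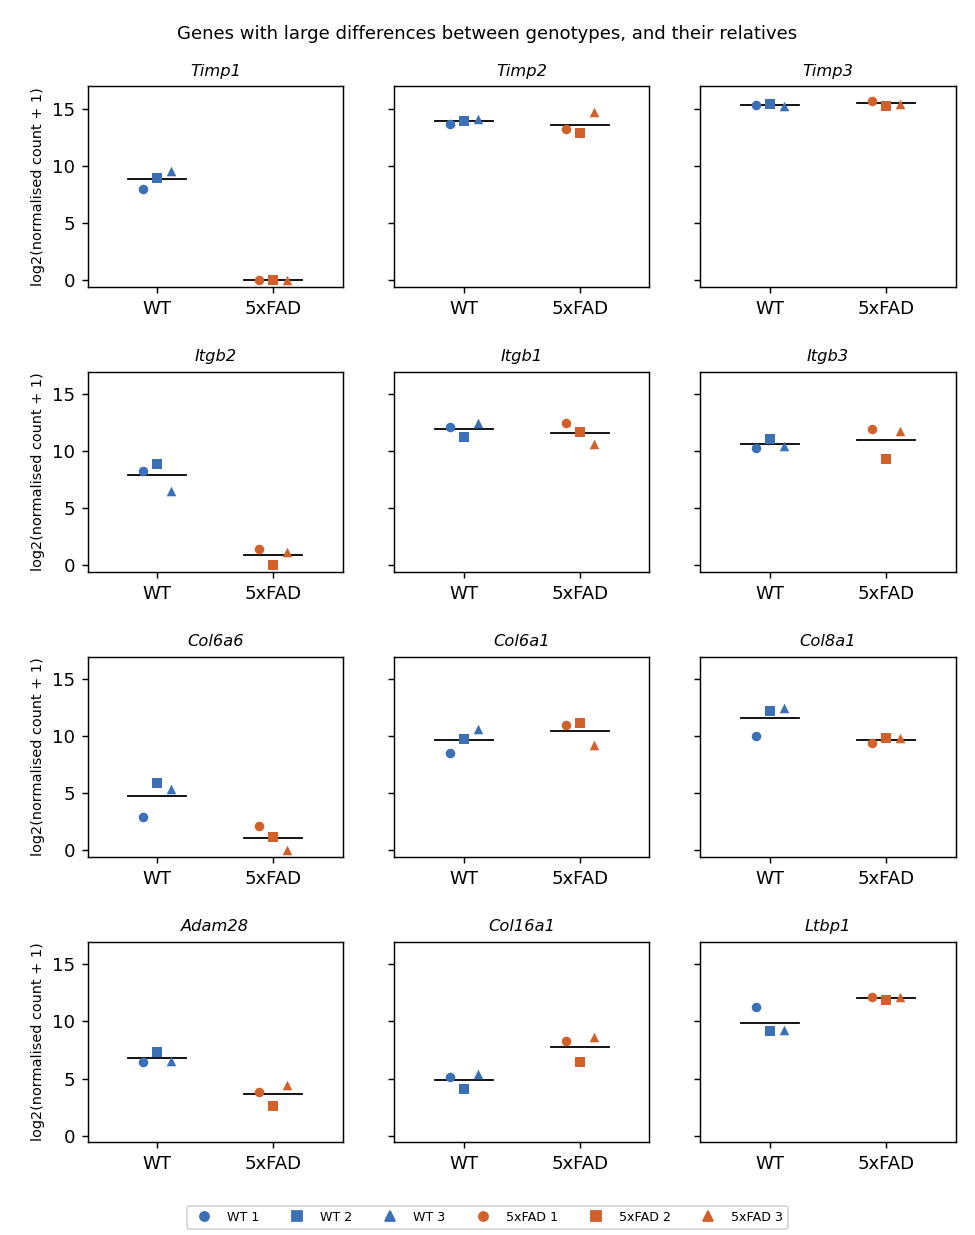
Level of 12 genes as log2(normalised count + 1) in WT (blue) and 5xFAD (orange), with 1 point per library and a line at the mean. Timp1 is at 0 in all 5xFAD libraries, while Timp2 and Timp3 overlap between genotypes; Itgb2 is at or near 0 in 5xFAD, while Itgb1 and Itgb3 overlap.

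Among the integrin beta chains, Itgb2 was at 312, 471 and 89.3 in WT and at 1.7, 0 and 1.3 in 5xFAD. Every WT library was above every 5xFAD library. The counts were 988 reads in WT and 3 in 5xFAD, a WT over 5xFAD ratio of 268 with an exact 95% counting interval from 91.3 to 1300. By limma the log2 fold change was -7.01 (SE 1.06; adjusted p = 5.02e-09). Leaving out 1 library at a time, the ratio ranged from 189 (without 5xFAD 2) to 455 (without 5xFAD 1). The 455 rests on 1 5xFAD read, with an interval from 81.5 to 18000. The log2 fold change ranged from -6.52 (without WT 2) to -7.71 (without WT 3). Itgb2 pairs with alpha chains of leukocytes, and the gate removed CD45-positive cells. Of 11 leukocyte markers only Mrc1, which lymphatic endothelium also expresses, was in the table, at 8243 to 11829 in WT and 8105 to 11310 in 5xFAD (exact permutation p = 0.7). Cx3cr1, a receptor of microglia and macrophages placed in the neural and glial list, was at 32.9, 186 and 115 in WT and at 80.5, 60.8 and 82.3 in 5xFAD, which overlap (log2 fold change -0.27, 95% interval -2.37 to 1.83). The part of leukocytes in the Itgb2 values was not tested.

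The other beta chains overlapped between the genotypes. Itgb1, the partner of most matrix-binding alpha chains, was at 4388, 2480 and 5715 in WT and at 5688, 3370 and 1619 in 5xFAD (log2 fold change -0.33, 95% interval -1.77 to 1.10). Itgb3, which pairs with the alpha V chain, was at 1254, 2155 and 1383 in WT and at 3899, 629 and 3501 in 5xFAD (0.40, -1.28 to 2.08). Per kb of exon the WT levels were 1100 ± 426 for Itgb1 and 276 ± 84.3 for Itgb3 (SD, n = 3), although Itgb3 exceeded Itgb1 in the library 5xFAD 3 (Itgb1 over Itgb3 per kb 0.701).

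No integrin alpha chain passed among 7 by limma, edgeR or DESeq2. At an unadjusted p under 0.05 there were 0 by limma and edgeR and 1, Itga4, by DESeq2. Per kb of exon Itga1, a receptor for collagen, had the highest mean level in both genotypes (612 ± 158 and 610 ± 304, SD, n = 3). Its values were 5759, 8714 and 5654 in WT and 6703, 3348 and 10011 in 5xFAD. Itga9 was at 2663, 5861 and 2519 in WT and at 5232, 2436 and 3416 in 5xFAD, which overlap (log2 fold change 0.05, 95% interval -1.40 to 1.49). Itga6, a laminin receptor, and Itgav, which binds RGD motifs of vitronectin and fibronectin, had log2 fold changes of -0.11 and 0.30, both with overlap.

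Itga4, a receptor for VCAM-1 and fibronectin, was the 1 alpha chain whose groups did not overlap. It was at 425, 665 and 372 in WT and at 1237, 1148 and 1194 in 5xFAD, with the 5xFAD libraries close together. The log2 fold change was 1.33 (95% interval -0.57 to 3.24; limma adjusted p = 0.559), which did not pass. DESeq2 gave 1.29 (DESeq2 adjusted p = 0.232). Itga3, a laminin receptor, ranged from 173 to 1946 in WT and from 95.5 to 621 in 5xFAD, and Itga2, a collagen receptor, from 29.2 to 378 and from 10 to 109. Their 5xFAD values lay inside or below wide WT ranges (log2 fold changes -1.41 and -1.92), and neither passed. Added together, the alpha chains came to 14840 ± 2300 in WT against 15530 ± 3370 (SD, n = 3) in the transgenic libraries (exact permutation p = 0.8).

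**Figure D3:**
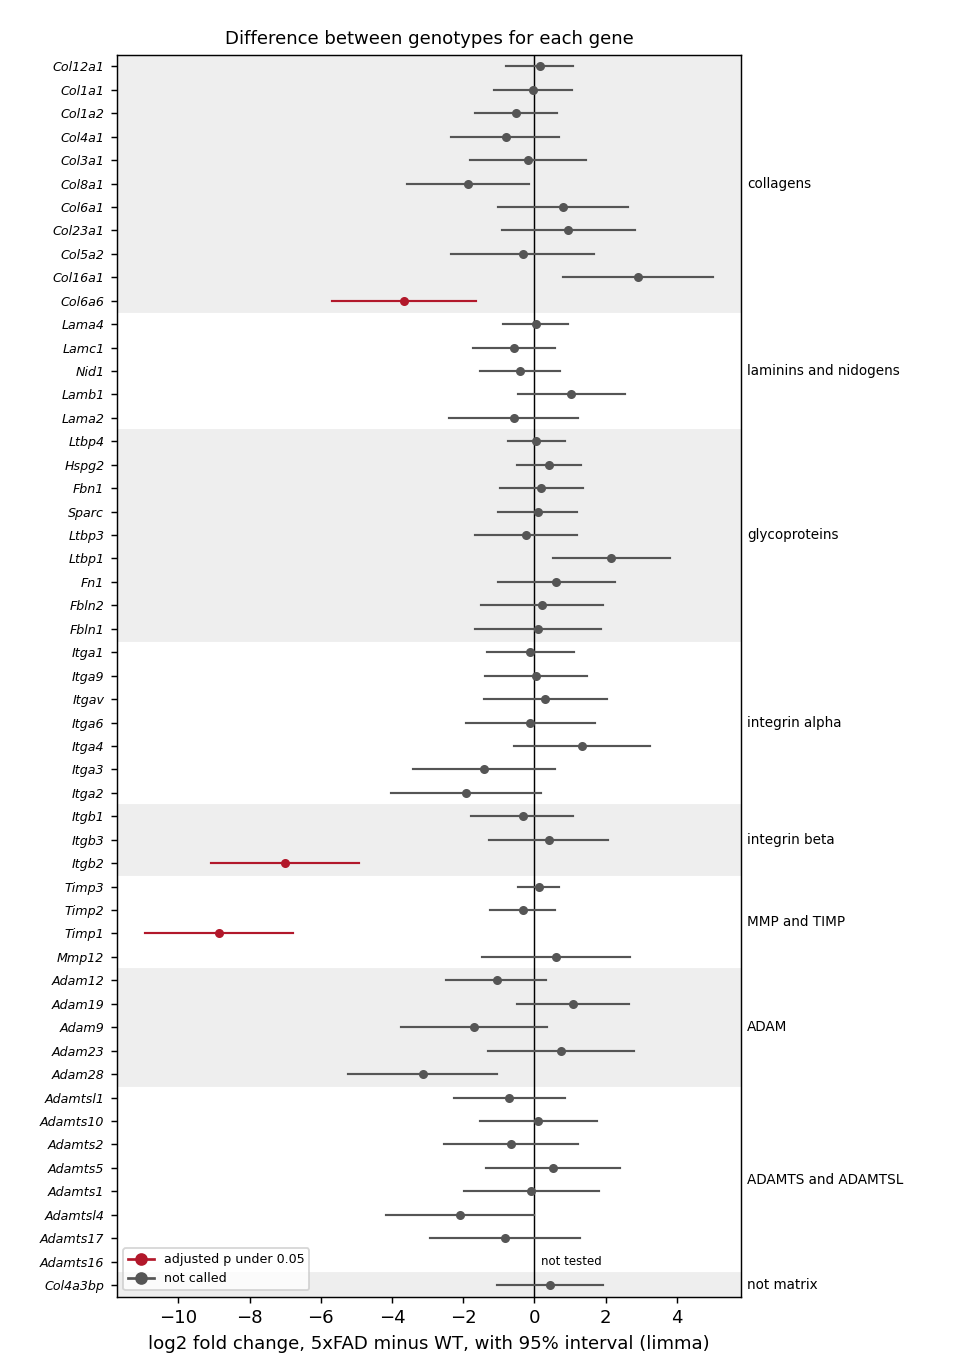
Log2 fold change, 5xFAD minus WT, of each gene with its 95% interval from limma, in the order of the plot of levels; red marks an adjusted p under 0.05. Timp1 (-8.85), Itgb2 (-7.01) and Col6a6 (-3.66) are the 3 red genes, and most grey intervals cross 0.

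Of 11 collagen chains, 1 was lower and 0 were higher by limma (median log2 fold change -0.18). Col6a6 was at 6.6, 60.4 and 40.7 in WT and at 3.3, 1.2 and 0 in 5xFAD. These stood for 8, 65 and 46 reads in WT and 4, 1 and 0 in 5xFAD. The groups did not overlap, but WT 1 and 5xFAD 1 stood close to each other (log2 fold change -3.66, SE 1.04; limma adjusted p = 0.00923). The call was lost without WT 2 (-3.07, limma adjusted p = 0.065) and without 5xFAD 3 (-3.12, 0.116), and without WT 1 the value was -4.58. It was also lost with a pseudocount of 10 (-1.77, limma adjusted p = 0.0693). Exons of Col6a6 overlap those of Gm38314 on the opposite strand, and reads of the 2 cannot be told apart without strand. Col6a1, a more abundant chain of the same collagen, was at 368, 867 and 1651 in WT and at 1991, 2328 and 600 in 5xFAD (0.80, 95% interval -1.03 to 2.63), which did not pass.

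The fibrillar chains of collagen I and III, which bear tensile load, overlapped between genotypes. Col1a1 was at 11882, 8818 and 6712 in WT and at 11282, 8815 and 6456 in 5xFAD (log2 fold change -0.04, 95% interval -1.14 to 1.05). Col1a2 was at 6149, 5201 and 21534 in WT and at 6678, 8445 and 4135 in 5xFAD (-0.52, -1.68 to 0.64), where WT 3 stood apart. Col3a1 was also highest in WT 3, at 4571, and spanned 865 to 3780 in 5xFAD. The summed collagen I and III value was 32817 in WT 3 and between 11456 and 21040 in the other 5 libraries. Fibroblasts are the main source of these collagens in many tissues. Of 20 fibroblast and arachnoid markers looked for, 10 were in the table and none of these was at 0 in any library. Their sum was 51935 in WT 3 and 22628 to 30665 in the other 5 libraries, but Apod alone gave 23801 in WT 3. Without Apod the sum was 28134 in WT 3, 28199 in 5xFAD 3 and 19463 to 24786 in the remaining libraries. Of the 10 markers, 3 were highest in WT 3, 3 in WT 1, 2 in WT 2, 1 in 5xFAD 2, 1 in 5xFAD 3 and 0 in 5xFAD 1. Among them 4 had a positive and 6 a negative log2 fold change (median -0.36), and 0 passed by limma. Of all genes tested, 49.3% had a positive one. Between genotypes the sum over all 10 markers ranged from 22628 to 51935 in WT and from 24373 to 30438 in 5xFAD (exact permutation p = 0.7). The part of fibroblasts in the collagen values was not tested.

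The remaining collagens spanned a wide range of levels. Col12a1, a fibril-associated collagen, was at 9867 to 17985 in WT and 11513 to 20228 in 5xFAD (log2 fold change 0.16, 95% interval -0.79 to 1.10). Col8a1, a network collagen of vascular walls, was at 1065, 4847 and 5636 in WT and at 701, 949 and 901 in 5xFAD, without overlap (-1.87, -3.58 to -0.16). It did not pass by limma (limma adjusted p = 0.235), and did by DESeq2 (DESeq2 adjusted p = 0.0393). Leaving out 1 library at a time, its log2 fold change ranged from -1.43 (without WT 3, limma adjusted p = 0.612) to -2.63 (without WT 1, limma adjusted p = 0.111). Col16a1, a fibril-associated collagen, was at 34.5, 15.8 and 40.7 in WT and at 308, 85.1 and 398 in 5xFAD. All 3 5xFAD libraries were above WT (2.91, 0.81 to 5.01; limma adjusted p = 0.0829), which passed by DESeq2 (DESeq2 adjusted p = 0.00261), without a trend in limma's prior (limma adjusted p = 0.0485) and without 5xFAD 2 (3.59, limma adjusted p = 0.0427). Col23a1, a transmembrane collagen, was at 340 to 885 in WT and 1024 to 1584 in 5xFAD, also without overlap (0.95, -0.92 to 2.83), and did not pass. Col5a2, which regulates fibril diameter, spanned 149 to 1782 in 5xFAD alone.

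No laminin or nidogen passed by limma, edgeR or DESeq2, and 0 of the 5 had an unadjusted p under 0.05 by any of these. Lama4, the laminin alpha chain typical of endothelium, was at 10560, 19977 and 15140 in WT and at 10512, 15609 and 20999 in 5xFAD (log2 fold change 0.04, 95% interval -0.87 to 0.95). Lamc1, the common gamma chain, was at 11742, 12639 and 5792 in WT and at 4377, 8843 and 6837 in 5xFAD (-0.57, -1.71 to 0.57). Lamb1, the beta chain, was at 1065, 2621 and 2879 in WT and at 4753, 2936 and 5051 in 5xFAD. Every 5xFAD library was above every WT library for Lamb1, although 2936 and 2879 nearly meet (1.04, -0.47 to 2.56; limma adjusted p = 0.569), and the gene did not pass.

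The ratio of the chains varied between libraries. Per kb of exon, Lama4 exceeded Lamb1 9.58, 7.36 and 5.08 times in WT and 2.14, 5.14 and 4.02 times in 5xFAD (exact permutation p = 0.2), and the groups overlapped. Lama2, an alpha chain of muscle and perivascular basement membranes, was at 2338, 338 and 2879 in WT and at 2818, 399 and 606 in 5xFAD, so that library WT 2 was as low as the lower 5xFAD libraries. Nid1, which links laminin to collagen IV, was at 5142 to 11006 over the 6 libraries, Col4a1 at 1115 to 4637 and Hspg2 (perlecan) at 9732 to 20777. Their log2 fold changes were -0.41 (95% interval -1.54 to 0.72), -0.81 (-2.33 to 0.70) and 0.42 (-0.49 to 1.32).

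**Figure D4:**
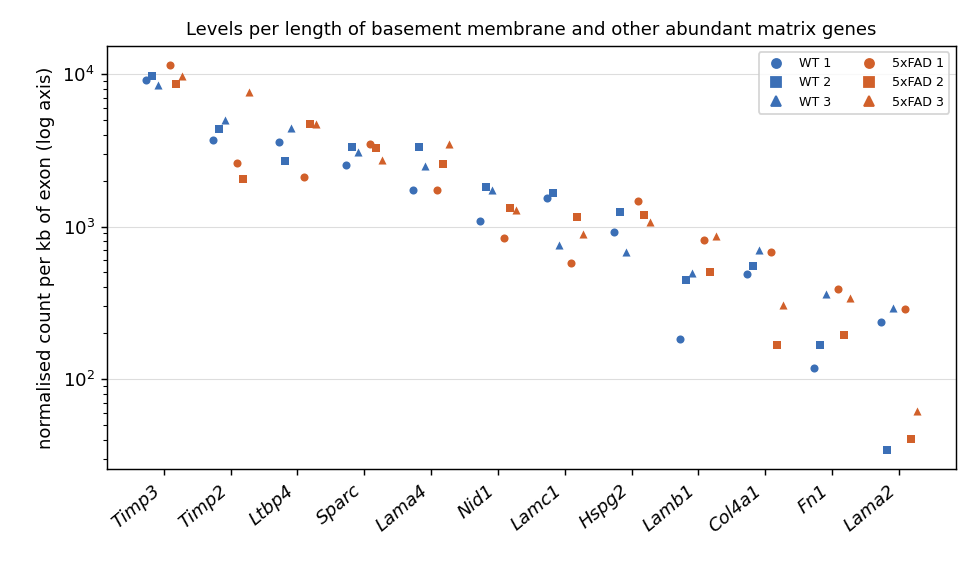
Normalised count per kb of exon, on a log axis, of 12 matrix genes in each library (WT blue, 5xFAD orange). Timp3 is the highest, Lama4 lies above Lamb1 in all 6 libraries, and Lama2 is spread over the widest range.

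Among the glycoproteins, Sparc, a collagen-binding protein of the cell surface and matrix, was at 6869, 8971 and 8367 in WT and at 9416, 8874 and 7439 in 5xFAD, a range of 1.37 times over 6 libraries. Its groups overlapped (log2 fold change 0.09, 95% interval -1.03 to 1.21). Ltbp4, which holds latent TGF-beta and is needed for elastic fibres, had a level per kb of exon of 3550 ± 859 in WT, against 771 ± 229 for Ltbp3 and 176 ± 160 for Ltbp1 (SD, n = 3). Ltbp4 was at 15733 to 25808 in WT and 12358 to 27695 in 5xFAD (0.05, -0.75 to 0.85).

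Ltbp1, which anchors latent TGF-beta to fibrillin and fibronectin, was at 2493, 564 and 591 in WT and at 4519, 3754 and 4425 in 5xFAD. All 5xFAD libraries were above WT, and WT 1 stood above the other WT libraries. The log2 fold change was 2.16 (95% interval 0.52 to 3.81; limma adjusted p = 0.108), which did not pass. Leaving out 1 library at a time, it ranged from 1.80 (without WT 2, limma adjusted p = 0.34) to 2.87 (without WT 1, limma adjusted p = 0.0599). Ltbp3 was at 2739, 4162 and 5098 in WT and at 4155, 1828 and 4731 in 5xFAD, and overlapped. Fn1 was at 1009, 1411 and 3062 in WT and at 3319, 1661 and 2900 in 5xFAD (0.62, -1.01 to 2.26). Fbn1, the main fibrillin, was at 5364 to 8102 in WT and spanned 3526 to 20845 in 5xFAD, with 5xFAD 3 alone at the top. The fibulins Fbln1 and Fbln2, which bind elastic fibres and basement membranes, had log2 fold changes of 0.10 and 0.21. Of the 9 glycoprotein genes 8 had a positive log2 fold change, but only 5 with libraries scaled to the same total and 6 to 7 with single libraries left out. Of the 9, 0 passed by limma, edgeR or DESeq2, and 1, Ltbp1, had an unadjusted limma p under 0.05.

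No ADAM or ADAMTS gene passed by limma or edgeR among 12 tested, and 2, Adam28 and Adamtsl4, were lower at an unadjusted limma p under 0.05. Adam28, a membrane protease known from lymphocytes and epithelium, was at 87.1, 156 and 91.1 in WT and at 13.3, 4.9 and 21.2 in 5xFAD. The groups did not overlap, and its adjusted p was just above the threshold (log2 fold change -3.14, 95% interval -5.24 to -1.05; limma adjusted p = 0.0514). It was below the threshold by DESeq2 (DESeq2 adjusted p = 0.00404) and by limma with a pseudocount of 10 (limma adjusted p = 0.0425). By limma it was also below without a trend in the prior (limma adjusted p = 0.0245) and with libraries scaled to the same total (limma adjusted p = 0.0413). It stayed above the threshold each time a single library was left out (-2.61 to -3.57, limma adjusted p from 0.0578 to 0.232).

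Adam12, a protease of mesenchymal cells, was at 4125, 2001 and 20870 in WT and at 1967, 4919 and 1961 in 5xFAD. WT 3 stood far above the other 5 libraries. The log2 fold change was -1.06 (95% interval -2.47 to 0.34), and -0.11 without WT 3. Adam19 was at 689, 1750 and 3865 in WT and at 4151, 1988 and 5385 in 5xFAD (1.08, 95% interval -0.49 to 2.66), and Adam9 at 267 to 884 and 34.5 to 340 (-1.70, -3.75 to 0.36). Adam23, which lacks protease activity, was at 184 to 213 in WT and 197 to 468 in 5xFAD. None of these 4 genes separated the genotypes.

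The secreted ADAMTS proteases and ADAMTS-like proteins all overlapped between genotypes. Adamtsl1, which has no protease domain, was at 4303, 3864 and 2003 in WT and at 579, 2007 and 6526 in 5xFAD. Adamts10, which binds fibrillin, was at 970, 6012 and 1103 in WT and at 1449, 1116 and 5006 in 5xFAD, with 1 high library in each genotype. Adamts2, which trims procollagen, was at 558 to 2722 in WT and 297 to 1208 in 5xFAD, and Adamts5, which cuts large proteoglycans, at 232 to 2297 and 558 to 1422. Adamts1, another enzyme that cuts proteoglycans, was even in WT at 744 to 874 and spread from 295 to 1894 in 5xFAD. Adamtsl4, a fibrillin-binding protein, was at 913, 417 and 91.1 in WT and at 207, 102 and 19.9 in 5xFAD (log2 fold change -2.10, 95% interval -4.18 to -0.02; limma adjusted p = 0.298). It was -3.01 without WT 3 and -2.82 without 5xFAD 1, and -1.36 without WT 1 and -1.16 without 5xFAD 3. Adamts17 was at 24.7 to 275 in WT and 17 to 88.7 in 5xFAD. Adamts16 had a mean below 10 and was not tested, at 2.5 to 8 in WT and 0 to 6.6 in 5xFAD.

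Other genes of the matrix were taken from 4 further lists. In matrix glycoproteins and proteoglycans 0 of 28 tested genes passed by limma (1 higher and 1 lower at an unadjusted p under 0.05), in collagen processing and cross-linking 0 of 10, and in other proteases and their inhibitors 0 of 10 (none at an unadjusted p under 0.05 in the last 2). By edgeR and DESeq2, 0 genes of these 3 lists passed. Their median log2 fold changes were -0.07, -0.21 and -0.43. In the list of integrin adhesion adaptors, which also holds small GTPases and membrane proteins, 1 of 26 rose and 2 fell by limma. Of all genes tested, 1.88% rose and 4.48% fell. The list's median was -0.10 on the log2 scale. By edgeR 1 rose and 2 fell (1.93% and 4.12% of all genes), and by DESeq2 2 and 2 (3.96% and 6.41%). Parvb took the place of Git1 in both, and Ptk2 was added in DESeq2. Groups did not overlap for 4 of the 26, against 18.1% of all genes tested.

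The 2 lower genes of the adaptor list were Rap1a, a small GTPase that activates integrins, and Tns2, a tensin of focal adhesions. Rap1a was at 1956, 484 and 1615 in WT and at 24.1, 37.7 and 223 in 5xFAD, without overlap (log2 fold change -4.26, SE 1.04; limma adjusted p = 0.00132). Its close copy Rap1b did not overlap between genotypes either, at 1455 to 2841 in WT and 622 to 1137 in 5xFAD, and did not pass (limma adjusted p = 0.60); how reads were divided between the 2 is not given in the sources used here. With single libraries left out, Rap1a was at -5.21 (5xFAD 3), -4.89 (WT 2) and -3.63 (5xFAD 1). Tns2 was at 1081, 3205 and 16608 in WT and at 242, 1126 and 255 in 5xFAD, where 1126 exceeded the lowest WT library (-3.23, SE 0.91; limma adjusted p = 0.00878). Its call was lost without WT 3 (-2.18, limma adjusted p = 0.333), 5xFAD 1 (0.0545) or 5xFAD 3 (0.0517), and the value was -4.15 without WT 1 and -3.95 without 5xFAD 2.

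Git1, a scaffold of focal adhesion turnover, was the higher gene of the adaptor list. It was at 617, 3966 and 473 in WT and at 4957, 3354 and 14980 in 5xFAD, so that WT 2 exceeded 5xFAD 2. Its log2 fold change was 2.58 (SE 0.79; limma adjusted p = 0.0216). The call was lost without WT 1 (limma adjusted p = 0.136), WT 3 (0.169) or 5xFAD 3 (1.96, 0.278), and the value was 3.54 without WT 2. It was also lost by edgeR (edgeR adjusted p = 0.054) and DESeq2 (DESeq2 adjusted p = 0.119).

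Groups did not overlap for 10 of the 52 tested members (19.2%), 5 higher and 5 lower, and for 18.1% of all genes tested. The 5 higher were Col16a1, Ltbp1, Itga4, Lamb1 and Col23a1, and the 5 lower were Timp1, Itgb2, Col6a6, Adam28 and Col8a1. Together the 53 genes took up 2.37 to 2.63% of the reads of listed genes in WT and 2.22 to 2.45% in 5xFAD (2.533 ± 0.138% and 2.348 ± 0.118%, SD, n = 3; exact permutation p = 0.2), and the collagens 0.463 ± 0.0901% and 0.372 ± 0.0939% (exact permutation p = 0.4). Of the 6 blood endothelial markers in the table, 4 had a positive and 2 a negative log2 fold change. The positive ones were Flt1 (0.58), Vwf (0.41), Emcn (0.19) and Plvap (0.17), and the negative ones Cldn5 (-1.01) and Sox17. Only Sox17 passed by limma, at 133, 52.1 and 17.7 in WT and at 0 in all 5xFAD libraries. Sums over the mural, blood endothelial, and neural and glial markers found in the table overlapped between the genotypes (4, 6 and 2 genes; exact permutation p = 0.9, 0.6 and 0.3).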

How the data were processed

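RNA was sequenced from 6 libraries of sorted meningeal lymphatic endothelial cells (3 WT, 3 5xFAD), after extraction with PicoPure and linear amplification, per the labels' protocols. Per the submitters' processing notes the tools were FastQC, Trimmomatic, Salmon and DESeq2, with the mm10 build; versions and settings are not given in the sources used here. The deposited values are a normalized signal, read counts divided by 1 factor per library. Dividing each column by its smallest value above 0 gave whole numbers for 100% of values (tolerance 1e-06), taken as recovered reads. Intervals on reads cover counting error only.

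Within a genotype, the SD of log2(reads + 1) stayed under 2 for all listed genes. In the 18 sets of 3 libraries that mix genotypes, 380 to 624 genes were at or above 2. Genes uneven within a genotype are thus missing from the table, which bears on every share and p-value.

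Genes with a mean of at least 10 (4152) were tested on log2(value + 1) with limma 3.58.1 in R 4.3.3, with prior variance following level, two-sided. Fold changes on this scale understate those of low genes. The script was tested on simulated data. Alternatives changed the pseudocount, filter, prior, scaling and block, left out each library, and used edgeR 4.0.16 and DESeq2 1.42.0 on recovered reads. Lengths and positions are from GENCODE M21 (GRCm38, the assembly of mm10). The named genes are all called members, the 4 of highest mean value per role, up to 8 per direction without overlap between groups, called genes of 4 further lists, and fixed integrin, TIMP and basement membrane genes. Members and lists were chosen with earlier results of these data known.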

Additional observations from a re-analysis of the deposited data

How the results depend on the processing

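The 3 lower and 0 higher members became 5 and 1 with DESeq2, and 1 was higher without a trend in limma's prior (4 lower); the cause was not tested. With single libraries left out, 2 to 3 were lower and 0 to 1 higher. Timp1 and Itgb2 kept their call in all 17 settings. Git1 and Tns2 lost theirs without a trend in the prior (limma adjusted p = 0.12 and 0.0519). With the replicate block there were 3 lower and 0 higher members. Over all genes tested, deviations of libraries with the same number correlated at 0.00247, -0.0157 and -0.0126. A batch shared by number that acts on few genes would not show in these values. Over all genes, 78 higher and 186 lower became 163 and 264 with DESeq2, and 49 and 116 when only means of 50 or more entered, where Col6a6 was too low to be tested. The median over all genes went from -0.02 to -0.14 (log2) when libraries were scaled to equal totals.

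None of the members whose sign changed was called in any setting. With edgeR the values of opposite sign were Col5a2 0.24, Lama4 -0.0057, Itga6 0.26, Itga9 -0.038, Adamts1 0.26, Adamts5 -0.054 and Adamts10 -0.16. With DESeq2 they were Col5a2 0.31, Itga6 0.29, Adamts1 0.30, Adamts5 -0.0057 and Adamts10 -0.099, and with the same total per library Lama4 -0.084, Sparc -0.031, Fbln1 -0.022, Ltbp4 -0.075, Itga9 -0.072, Timp3 -0.0035 and Adamts10 -0.01. With single libraries left out, values that crossed 0 ranged over Adamts1 -0.76 to 0.58, Adamts10 -0.55 to 0.96, Adamts17 -1.49 to 0.25, Adamts2 -1.09 to 0.061, Adamts5 -0.22 to 1.43, Adamtsl1 -1.58 to 0.17, Col12a1 -0.097 to 0.41, Col1a1 -0.25 to 0.17, Col1a2 -0.90 to 0.12, Col3a1 -0.67 to 0.39, Col5a2 -1.49 to 0.34, Fbln1 -0.34 to 0.73, Fbln2 -0.22 to 0.68, Fbn1 -0.50 to 0.78, Itga1 -0.47 to 0.32, Itga6 -0.71 to 0.86, Itga9 -0.24 to 0.44, Itgav -0.12 to 1.03, Itgb1 -0.76 to 0.14, Itgb3 -0.065 to 1.25, Lama4 -0.20 to 0.30, Ltbp3 -0.49 to 0.19, Ltbp4 -0.15 to 0.43, Sparc -0.022 to 0.19 and Timp2 -0.90 to 0.048. The other 26 of 52 tested members kept their sign in every setting.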

Other observations

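The 2 chains of collagen I, which are assembled into 1 molecule, did not keep a fixed ratio between libraries. Per kb of exon, Col1a1 over Col1a2 was 1.74 and 1.53 in WT 1 and WT 2, 0.281 in WT 3, and 1.52, 0.941 and 1.41 in the 5xFAD libraries. WT 3 also held the highest value of 13 of the 52 tested members (25%, against 19.5% of all genes tested), and 5xFAD 3 of 12 (23.1%, against 22.4%).

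The range over the 6 libraries, which takes in any difference between genotypes, varied between members. The highest library was 1.35 times the lowest for Timp3, 1.37 for Sparc, 1.84 for Col1a1, 2.00 for Lama4 and 2.41 for Itga9. It was 20.4 times the lowest for Itga3, 25.2 for Col16a1, 25.6 for Adam9, 32.1 for Adam28, 38.0 for Itga2 and 45.9 for Adamtsl4. Wide ranges went with few reads, such as 9 for Itga2 and 15 for Adamtsl4 in 5xFAD 3, against 34675 for Timp3. Within WT alone, Lama2 spanned 8.51 times, Adam12 10.4 times and Itga3 11.3 times.

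Ptk2 (focal adhesion kinase) and Parvb (a parvin of the same adhesions), both chosen after their values were seen, were higher in every 5xFAD library than in any WT library. Neither passed by limma, while Parvb passed by edgeR and both passed by DESeq2. Ptk2 was at 345, 247 and 607 in WT and at 1711, 3867 and 1319 in 5xFAD (log2 fold change 2.46, limma adjusted p = 0.109), and Parvb at 607, 398 and 272 and at 1617, 9000 and 1230 (2.69, limma adjusted p = 0.0592).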
